A study of Lactuca sativa with 24 samples.

Results

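The dominant transcripts of the lettuce leaf are 100 genes, chosen by their measured levels: of the genes named by a locus identifier (LOC), those with the highest mean share of reads over 18 leaf libraries. They were 100 of 31499 genes in the tables, 30879 of which carried a locus identifier. The level of each gene was given in reads per 1000000 reads in genes (CPM), a measure of its share of all reads of the library. The rule used the mean level over the 18 libraries and no contrast, and the levels are described here without a test. A gene could still enter the 100 through a single variety or group in which it was high. Not all such genes are named. Those called between the varieties, and those that entered through Luna bionda under UVB for 2.5 h, are named. For genes that entered through a single variety or group, the difference in the comparison concerned is given without a p of its own.

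The libraries came from wild-type baby leaves of 2 lettuce (Lactuca sativa) varieties, Luna bionda and Falstaff, which received white LED light with or without ultraviolet light. Both varieties were sampled at day 0, at day 6 under visible light, and at day 6 with UVB at 0.4 W per square metre for 2.5 h per day. Luna bionda also received UVB at 0.4 W per square metre for 7.5 h per day, and Falstaff received UVA at that irradiance for 7.5 h per day. The 8 groups held 3 libraries each of amplified cDNA. The labels do not tell whether separate plants were used within a group, and the spread between libraries, which the p-values measure, may be technical. Matched by their batch tag, the columns of the deposited tables disagreed with the conditions in the table names. Groups follow the labels here, and which of the 2 is right was not settled.

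The 18 libraries, 11 of Luna bionda and 7 of Falstaff, had 12072410 to 43276819 reads in genes. The rule left out 6 libraries with 464282 to 1036697 reads: Luna bionda UVB 7.5 h replicate 1, Falstaff day 0 replicate 1, Falstaff visible light replicate 2, Falstaff UVB replicate 1, and Falstaff UVA replicates 1 and 3. Those 6 differed in composition as well as depth. Protein-coding locus identifiers held 22.7 to 70.2% of their reads, against 95.2 to 97.6% in the 18. The plastid transcript psbA, for the D1 subunit of photosystem II, was at 28431 to 82829 CPM in the 6 libraries and at 0.416 to 39.1 CPM in the 18. Plastid rbcL, the large subunit of Rubisco, was at 64.6 to 124 CPM in the 6 and was listed at 0 in each of the 18. The labels give the molecule as polyA RNA.

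In leaves, a small number of nuclear genes for photosynthesis is known to supply a large part of the messenger RNA. Many of them, such as those for the small subunit of Rubisco and the chlorophyll a/b-binding proteins, belong to multigene families with near-identical copies that often lie side by side. Lettuce genes were named here by locus identifier only, with no product name, so no role is given to any of the 100 genes, and nuclear markers of leaf cell types could not be looked up. Levels are shares of reads and not shares per transcript length, so a long transcript ranks higher than a short one of equal abundance.

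The 100 genes held 22.8% ± 3.0 (SD, n = 18) of all reads, with 17.2% in the lowest library, a median of 22.1% and 28.2% in the highest. The single leading gene held 1.53% on average, the first 10 held 6.22%, the first 20 held 9.45% and the first 50 held 16.3%. The next 100 genes by rank held 7.67% ± 0.52 (SD, n = 18). In the 6 libraries that the rule did not use, the 100 genes held 2.21 to 9.70% of the reads. Within the reads of protein-coding locus identifiers alone, the members that are protein-coding held 8.95 to 18.6% in the 6 libraries and 17.2 to 28.0% in the 18. Since the genes were chosen as the highest of the 18 libraries, a higher share there was favoured by the choice. The 100 highest genes of each library's own held 28.3 to 72.5% of the reads in the 6 libraries and 19.1 to 32.4% in the 18.

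In Luna bionda at day 0 the 100 genes held 24.1, 20.9 and 21.0% of the reads in replicates 1 to 3. Under visible light at day 6 they held 17.2, 21.5 and 26.7%. With UVB for 2.5 h they held 26.9, 28.2 and 24.1%, and with UVB for 7.5 h 25.1 and 21.3% in replicates 2 and 3. The highest and the lowest of the 18 values were thus both from day 6 in Luna bionda, and the 3 libraries under UVB for 2.5 h overlapped those under visible light because of visible light replicate 3. In Falstaff the share was 20.5 and 26.9% at day 0, 19.8 and 23.0% under visible light, 22.6 and 21.3% with UVB, and 20.1% in the single UVA library. The variety means were 23.4% ± 3.29 (SD, n = 11) in Luna bionda and 22.0% ± 2.48 (SD, n = 7) in Falstaff, with overlapping ranges.

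**Figure D1:**
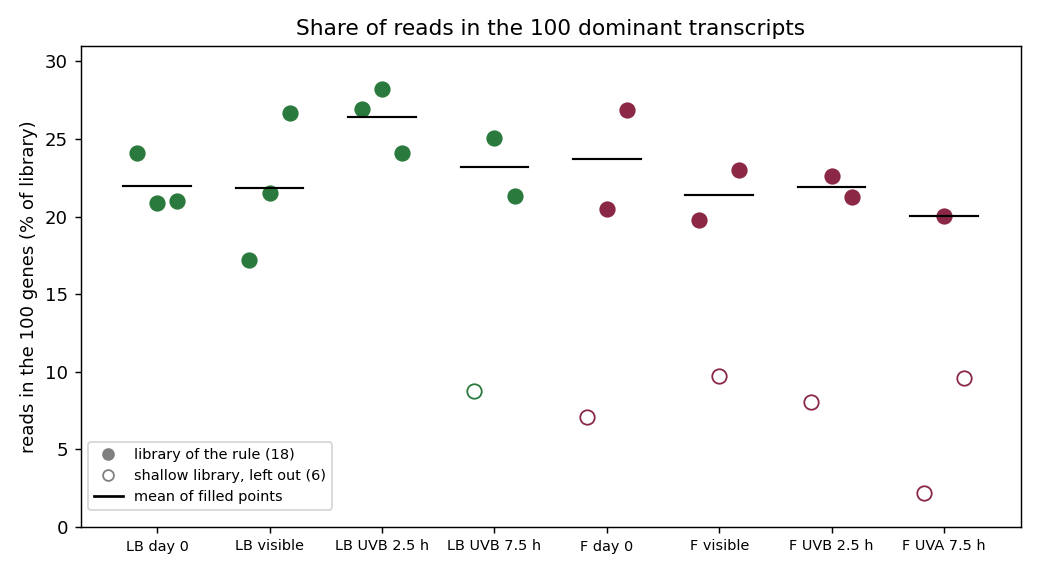
Share of each library's reads (vertical axis, %) in the 100 genes, by group (horizontal axis; LB, Luna bionda; F, Falstaff), with filled points for the 18 libraries of the rule, open points for the 6 shallow libraries and a bar at the mean of the filled points. Filled points lie between 17.2 and 28.2%, and open points between 2.21 and 9.70%.

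Because the rule fixed the genes, concentration was also measured with the 100 locus identifiers that were highest in each library itself. These held 25.2% ± 3.78 (SD, n = 11) of the reads in Luna bionda and 23.6% ± 2.12 (SD, n = 7) in Falstaff. The difference of 1.56 percentage points was within the spread between libraries (exact two-sided permutation test, p = 0.339, a single test in its family). This test pooled the conditions, although UVB for 7.5 h occurred only in Luna bionda and UVA only in Falstaff. Condition thus enters both the difference and the spread, and the test does not separate it from variety. The number of genes that together made up 25% of a library's reads ran from 53 to 188, with a median of 114.5. The fewest were needed in Luna bionda UVB 2.5 h replicate 2 and the most in Luna bionda visible light replicate 1, which needed 345 and 1125 genes for 50% of the reads. Each library's own first 10 genes held 8.94, 10.3 and 8.56% of the reads in Luna bionda under UVB for 2.5 h, and 5.65, 6.27 and 8.05% under visible light, so that these 2 sets of 3 did not overlap. The shares of the own first 100 did overlap, at 29.2, 32.4 and 26.6% under UVB and 19.1, 22.5 and 27.8% under visible light. So did the genes needed for 25% of the reads, at 67, 53 and 87 against 188, 128 and 79. The 2 sets also carry batch tags of different series, as described below. In Falstaff the shares of the own first 10 were 7.41 and 6.66% with UVB and 6.98 and 6.84% under visible light, which overlapped.

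The first place belonged to few genes. LOC111884730 was the highest in 11 of the 18 libraries and never fell below second place. It stood at 11347 CPM in the lowest Luna bionda library, with a median of 16162 and 20485 in the highest, and at 10488, 15232 and 18406 CPM for the same 3 points in Falstaff. LOC111908249 was the highest in 5 libraries, with 5088, 8966 and 17218 CPM (lowest, median, highest) in Luna bionda and 5920, 12521 and 17787 CPM in Falstaff. LOC111916590 led in Luna bionda day 0 replicate 3, and LOC111884119 led in the Falstaff UVA library with 11048 CPM.

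Behind LOC111884730, LOC111908249 and LOC111916590 (mean of 6551 CPM) the first 10 were completed by LOC111902831 with a mean of 5015 CPM, LOC111884674 with 4515, LOC111877950 with 4338, LOC111902212 with 4161, LOC111913912 with 3944, LOC122194445 with 3862 and LOC111896763 with 3719. These differed in steadiness. LOC111884730 varied by 1.95-fold between its lowest and highest library, LOC111908249 by 3.50-fold and LOC111916590 by 3.53-fold. LOC111896763 varied by 12.8-fold, from 672 CPM in a Falstaff library to 8610 CPM in a Luna bionda library, and its worst rank was 166. The end of the list was not a step: LOC111905362, LOC111881649 and LOC111878875 stood just inside at 1026, 1026 and 1024 CPM, and LOC111889025, LOC111907185 and LOC111897632 just outside at 1013, 1013 and 1010 CPM.

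Membership was shared widely but not everywhere. Of the 100 genes, 29 were among the 100 highest of all 18 libraries and 85 among those of at least 9. In contrast, 259 locus identifiers reached the first 100 of at least 1 library. A single library held between 61 members in its own first 100, in Luna bionda UVB 2.5 h replicate 2, and 86, in Luna bionda day 0 replicate 1. The 100 highest genes of Luna bionda alone and of Falstaff alone had 77 in common, which is 77% of each list. In the 6 libraries that the rule did not use, 18 to 50 members were in the first 100, 9 members were there in all 6, and 21 were there in none. Between the lowest and the highest library, 34 members varied by under 4-fold, and 10 fell below rank 1000 in at least 1 of the 18 libraries.

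All 100 identifiers were found in the RefSeq annotation of assembly Lsat_Salinas_v11. There 96 are protein-coding and 4 are long non-coding RNAs, a class that made up 9.24% of the genes tested. LOC111899827, of rank 17, was the highest of the 4, with 1045, 2811 and 5213 CPM (lowest, median, highest) in Luna bionda and 1673, 2550 and 5388 CPM in Falstaff. LOC128126721 stood at rank 27, with 1447 to 4911 CPM over the 18 libraries. LOC111889413, of rank 42, ran from 49.1 to 6768 CPM in Luna bionda and from 399 to 6881 CPM in Falstaff. LOC122196163, of rank 80, had a median of 1499 CPM in Luna bionda and 646 CPM in Falstaff, with overlapping ranges. Use of strand in counting is not given in the sources used here, so reads of a non-coding RNA and of a gene that overlaps it cannot be told apart.

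**Figure D2:**
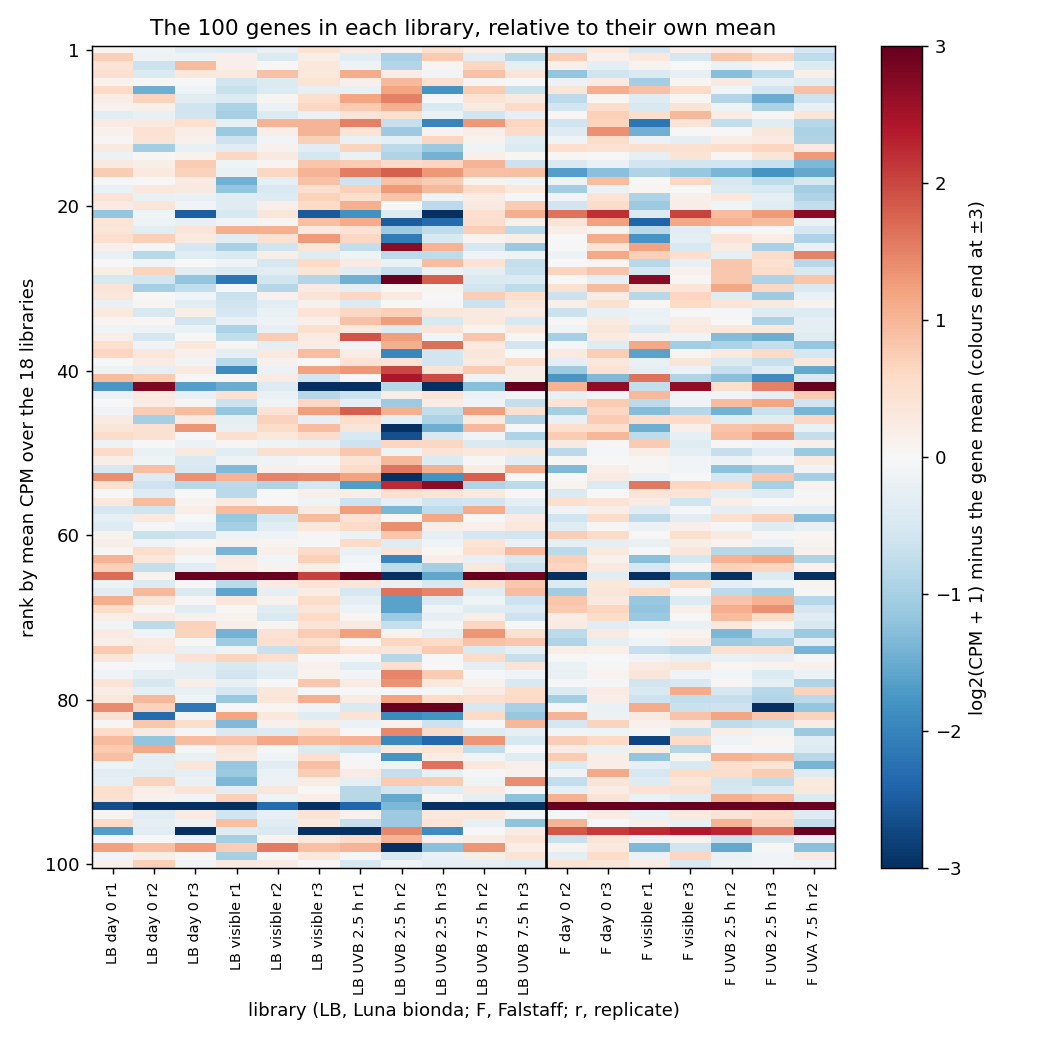
Each of the 100 genes (rows, by rank) in each of the 18 libraries (columns; LB, Luna bionda left of the line; F, Falstaff right of it), coloured by log2(CPM + 1) minus the gene's own mean, with colours ending at 3 log2 units. Most rows stay pale; single rows change colour at the line between varieties, such as ranks 93 (LOC111879914) and 16 (LOC111902826), and others change between libraries of a group.

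Spread between libraries of a group was measured as the residual SD of a model of group means, on the log2 scale of normalized values + 1. Its median was 0.60 over the 100 genes and 0.59 over all 22692 genes tested, with a range of 0.28 to 3.55 among the 100. LOC111889525 had the smallest, at 0.28. It ran from 1140 to 2187 CPM in Luna bionda and from 1186 to 1642 CPM in Falstaff, a 1.92-fold range over the 18 libraries. LOC111878875 and LOC111883301 followed at 0.34 and 0.35.

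The largest residual SD was that of LOC111913327, at 3.55. Its 3 libraries in Luna bionda under UVB for 2.5 h stood at 11031, 8.43 and 48.7 CPM, against 0.443 to 11031 CPM over the 18 libraries. LOC111889413 followed at 2.07 and LOC111889594 at 2.02. Over all 100 genes, a median of 9.70% of the variance lay between varieties, 36.1% between groups of a variety and 49.9% between libraries of a group. The medians over all genes tested were 6.65, 34.5 and 51.2%, and the degrees of freedom alone would give 5.88, 35.3 and 58.8%. The 100 genes were thus close to other genes in how their variance was divided.

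The varieties were compared as the mean of day 0, visible light and UVB for 2.5 h, Luna bionda minus Falstaff, with limma over all 22692 genes that had a mean normalized value of at least 10; all 100 members passed that filter. At a Benjamini-Hochberg adjusted p of 0.05, 7 of the 100 genes differed, 4 higher and 3 lower in Luna bionda, where 8.36% of all genes tested did (3.71% higher and 4.66% lower). Of the 100 genes, 77 were among the first 100 of both varieties by each variety's own mean, and 3 of these were called. The other 4 calls were among the 23 genes that were in the first 100 of 1 variety alone, which favours a difference between varieties. The share called among the 100 was near the background, and 6 of the next 100 genes by rank were called. At an unadjusted p under 0.05 there were 18 of the 100, against 19.6% of all genes. The median log2 difference was 0.26 over the 100 genes, 0.20 over the next 100 and -0.01 over all genes. Above 0 were 67 of the 100 and 68 of the next 100. The rule weighted Luna bionda, with 11 libraries, over Falstaff, with 7; a rule with equal weight for the varieties shared 96 members and gave 8 calls. The count rested on single libraries. It was 11 without Luna bionda visible light replicate 1, 3 without Falstaff visible light replicate 3 and 2 without Falstaff UVB replicate 2. It was 4 without Luna bionda day 0 replicate 1 and 4 without Luna bionda visible light replicate 2. It was also 4 without Falstaff day 0 replicate 2 and 4 without Falstaff UVB replicate 3. The number called over all genes moved as well, as given below under processing. This change is thus not read as a trait of the 100 genes.

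LOC111879914 was close to absent from Luna bionda. It stood at 0.166 CPM in the lowest Luna bionda library, with a median of 1.15 and 15.8 in the highest, and at 1276, 1984 and 6746 CPM for the same 3 points in Falstaff. On normalized values the groups did not overlap, as was so for 1 member and 2.24% of all genes in that direction. The log2 difference was -9.78 (SE 0.90). In the libraries that the rule did not use, the gene had 0 of 898111 reads in Luna bionda UVB 7.5 h replicate 1, which allows a level of up to 3.34 CPM (3 reads, counting error only), and between 190 and 2649 CPM in the 5 of Falstaff. It was at rank 22 by the mean over Falstaff and at rank 15500 by that over Luna bionda, so that it entered the 100 through Falstaff alone and the difference in the 18 libraries is a description; the 6 other libraries had no part in the choice.

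LOC111902826 was the opposite case. It stood at 1993, 4261 and 8024 CPM (lowest, median, highest) in Luna bionda and at 674, 891 and 1232 CPM in Falstaff. It was the single member whose Luna bionda libraries all lay above those of Falstaff on normalized values, where 1.42% of all genes did. The log2 difference was 2.43 (SE 0.32). It ranked 8 by the mean over Luna bionda and 121 by that over Falstaff, so it too entered through 1 variety.

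LOC111913327 and LOC111889594 also entered through a single variety, with ranks of 37 and 549 by the mean over Luna bionda and of 4286 and 32 by that over Falstaff. Without the Luna bionda UVB 2.5 h libraries, LOC111913327 would stand at rank 106. LOC111913327 had 8.43 to 11031 CPM in Luna bionda and 0.443 to 114 CPM in Falstaff, a log2 difference of 5.74 (SE 1.59). LOC111889594 had 17.5, 300 and 1110 CPM in Luna bionda and 1234, 1936 and 5228 CPM in Falstaff, a log2 difference of -3.72 (SE 0.91). Its CPM ranges did not meet, although the normalized values used for the overlap count did.

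The 3 called genes that were among the first 100 of both varieties had overlapping ranges. LOC111879796 was higher in Luna bionda by a log2 difference of 1.78 (SE 0.47, limma adjusted p = 0.0283), with 907, 1501 and 7161 CPM in Luna bionda and 362, 558 and 4121 CPM in Falstaff. LOC111902831 was higher by 1.30 (SE 0.36, limma adjusted p = 0.0398), with 3343, 5645 and 9766 CPM against 1874, 2998 and 5022 CPM. LOC111884119 was lower in Luna bionda, by a log2 difference of -2.40 (SE 0.61, limma adjusted p = 0.0235), with 167, 1224 and 3578 CPM in Luna bionda and 1271, 5204 and 11048 CPM in Falstaff. Among 30 alternatives, LOC111902831 lost its call in 15, LOC111879796 in 13 and LOC111884119 in 6. Of the called genes that entered through a single variety, LOC111913327 lost its call in 11 and LOC111889594 in 4. LOC111879914 and LOC111902826 lost theirs in 0.

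**Figure D3:**
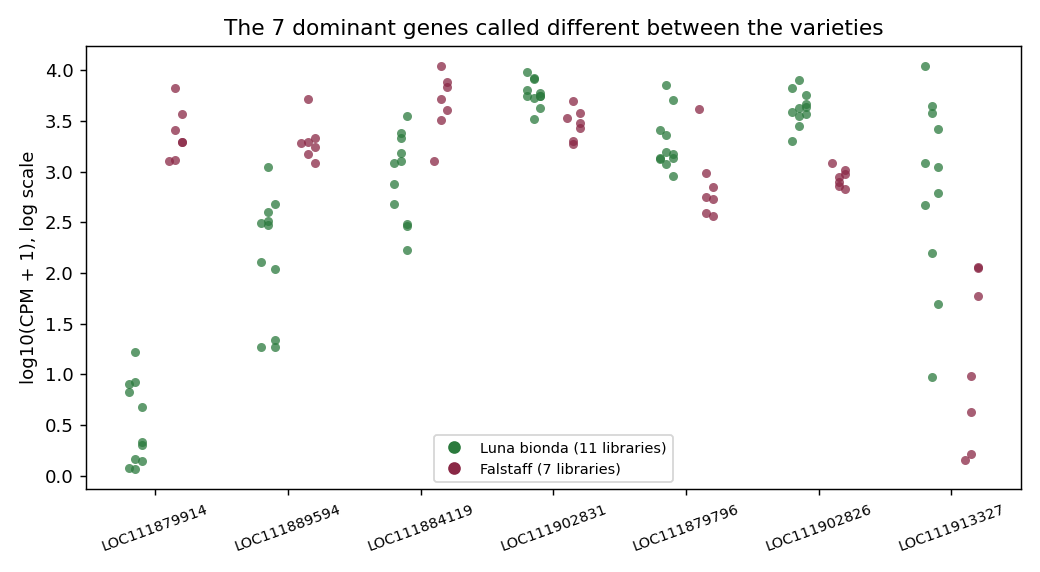
Level of the 7 genes called between the varieties (horizontal axis, from most Falstaff-high to most Luna bionda-high) as log10(CPM + 1) (vertical axis), with 1 point per library in Luna bionda (green, 11) and Falstaff (red, 7). LOC111879914 lies between 0.166 and 15.8 CPM in Luna bionda and between 1276 and 6746 CPM in Falstaff, and LOC111913327 spans 8.43 to 11031 CPM within Luna bionda.

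The batch tags in the labels start with 1 of 2 numbers. Among the 18 libraries, the lower number marks only Luna bionda UVB 2.5 h replicates 1 to 3 and Luna bionda day 0 replicate 2, so within-series values are those of the upper number. There, over day 0 and visible light, 6 of the 100 genes and 1773 genes in all were called between the varieties, the 6 with 3 in each direction. LOC111902831 and LOC111879796 lost their calls, with log2 differences of 1.07 and 0.80. What the series stand for is not stated in the labels. At single conditions, limma called fewer or as many: 2 of the 100 genes at day 0 (3.37% of all genes), 1 under visible light (3.45%), and 7 at UVB for 2.5 h, 6 higher and 1 lower in Luna bionda (5.57%). The calls at day 0 were LOC111879914 and LOC111902826, and that under visible light was LOC111879914. Both genes entered the 100 through 1 variety. The 7 at UVB include both of them, and LOC111893041, which entered through Luna bionda under UVB. At UVB for 2.5 h the libraries of the varieties also differed in tag series, so that variety and series cannot be told apart there.

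Some of the 100 genes lie next to each other in the annotation. Counted in steps from gene to gene, 11 pairs of members lie within 5 steps of each other, involving 10 members, whereas the next 4 sets of 100 genes by rank hold 1, 1, 0 and 2 such pairs. One pair is LOC111888029 and LOC111888054, which stood at ranks 28 and 30, and another is LOC128127537 and LOC111896763. The remaining 9 pairs are within a run of 6 members within 10 consecutive annotated genes, in the order LOC111902828, LOC111902826, LOC122194445, LOC111902829, LOC111902831 and LOC111902830. This run was chosen after its values were seen, and its values are given as a description. How reads that match several genes were counted is not given in the sources used here, so the split of reads between similar neighbours is uncertain.

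The 6 genes of the run together held a similar part of the library in both varieties. Their summed level was 21440 CPM ± 4915 (SD, n = 11) in Luna bionda, from 13984 to 32173, and 19404 CPM ± 3294 (SD, n = 7) in Falstaff, from 14744 to 23181. That was 9.14% ± 1.40 and 8.87% ± 1.66 of the reads of the 100 genes. The make-up of this sum differed. LOC111902826 and LOC111902831 together gave 49.8% ± 2.81 (SD, n = 11) of the run's reads in Luna bionda, from 44.2 to 54.3%, and 20.4% ± 2.88 (SD, n = 7) in Falstaff, from 17.2 to 25.1%, with no overlap. These 2 are the genes of the run that were called higher in Luna bionda, and LOC111902826 entered the 100 through that variety. The choice of the pair thus favoured this difference, which is a description in the 18 libraries.

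LOC111902826 alone gave 20.8% ± 5.47 in Luna bionda and 4.71% ± 0.93 in Falstaff. LOC111902831 gave 29.0% ± 5.46 and 15.7% ± 3.24. The other way round, LOC122194445 gave 14.9% ± 3.57 in Luna bionda and 25.5% ± 4.0 in Falstaff, LOC111902829 gave 9.56% ± 2.04 and 20.1% ± 6.20, and LOC111902830 gave 12.7% ± 3.34 and 23.5% ± 5.52. LOC111902828 was nearly even, with 13.1% ± 2.06 and 10.6% ± 2.02. All are shares of the same sum, so higher shares of some genes go with lower shares of others by construction.

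As single genes, the 4 others of the run did not pass the test between varieties: the log2 differences were 0.61 for LOC111902828, -0.43 for LOC122194445, -0.62 for LOC111902829 and -0.61 for LOC111902830. The shallow libraries, which the rule did not use, gave the same division. LOC111902826 and LOC111902831 made up 61.9% of the run's reads in the Luna bionda one and 14.1 to 26.2% in the 5 of Falstaff, on 602 to 12103 reads in the run per library.

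**Figure D4:**
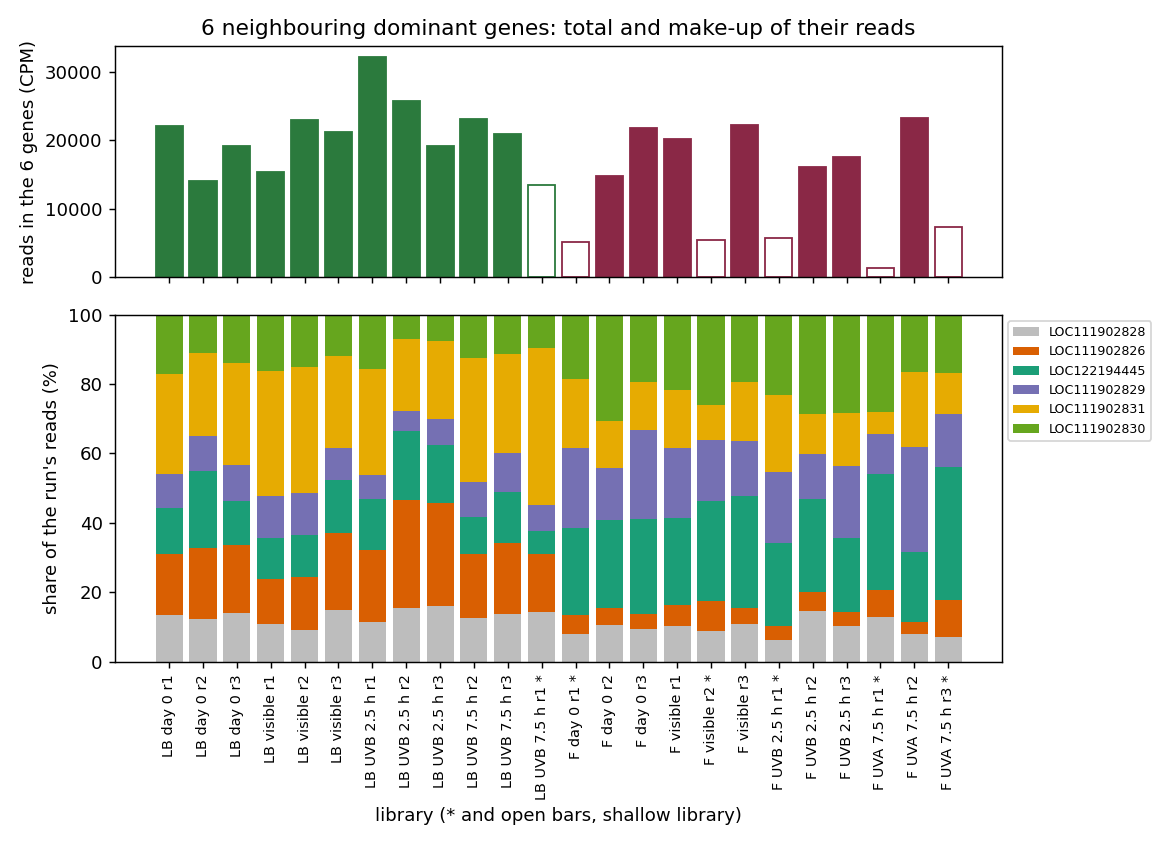
Top, summed level of the 6 neighbouring genes in CPM for all 24 libraries (LB, Luna bionda, green; F, Falstaff, red; open bars and stars, the 6 shallow libraries); bottom, the percentage of that sum from each gene, in the order of the annotation. The sums overlap between varieties in the 18 libraries, whereas LOC111902826 (orange) and LOC111902831 (yellow) together make up 44.2 to 54.3% in Luna bionda and 17.2 to 25.1% in Falstaff.

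By the median over the 100 genes, UVB for 2.5 h in Luna bionda gave the largest log2 difference of the 6 comparisons between conditions, but no single gene passed the test. With limma, 0 of the 100 genes and 0 of 22692 differed from visible light at an adjusted p of 0.05 (background of 0%), and edgeR called 0 of the 100. At an unadjusted p under 0.05 there were 25 of the 100, 22 higher and 3 lower, against 21.1% of all genes (11% higher and 10.1% lower). Of the next 100 genes by rank 32 were under that p, 27 higher and 5 lower. The median log2 difference was 0.67 over the 100, 0.48 over the next 100 genes by rank and -0.04 over all genes, and 74 of the 100 were above 0. Of the 100 genes, 95 would be in the first 100 without the 3 UVB libraries. For the other 5 the choice favoured a higher level under UVB. These are LOC111893041, LOC111883871, LOC111913327, LOC111907362 and LOC111920843. LOC111893041 had 383, 9666 and 4212 CPM in the UVB libraries and 38.4 to 1374 CPM in the rest of the 18. LOC111893041, LOC111883871 and LOC111920843 are among the 22 higher genes above. DESeq2 called 16 of the 100, all higher, where it called 8.59% of all genes in either direction. Its share of higher calls over all genes and its count for the next 100 genes are not given here. How many of the 5 genes named above are among the 16 is not given either. The 16 calls are thus not read as a trait of the 100 genes. Without Luna bionda UVB 2.5 h replicate 1, limma called 17 of the 100, 14 higher and 3 lower, and 4153 genes in all.

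On normalized values, all 3 UVB libraries lay above all 3 visible-light libraries for 12 of the 100 genes (8.93% of all genes) and below them for 2 (8.68%). Of the next 100 genes by rank, 22 lay above and 2 below. LOC111883871, among the 12, entered the 100 through these UVB libraries. LOC111907125 had 4527, 6662 and 5423 CPM under UVB and 1210, 2005 and 3903 CPM under visible light, a log2 difference of 1.90 (SE 0.58, limma adjusted p = 0.128), the smallest adjusted p among the 100. LOC111902826 had 6639, 8024 and 5703 CPM under UVB and 1993, 3522 and 4682 CPM under visible light, with a log2 difference of 1.6 (SE 0.50, limma adjusted p = 0.132). Its neighbours LOC111902828 and LOC122194445 were also among the 12 on normalized values, although their CPM ranges overlapped, with UVB replicate 3 below visible-light replicate 3. The first 3 genes of the run gave 46.8, 66.5 and 62.3% of its reads under UVB and 35.6, 36.4 and 52.4% under visible light, so that these shares overlapped. LOC111907125 and LOC111902826 were chosen after their values were seen.

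The UVB libraries were unlike each other for single members. LOC111895422 stood at 2470 CPM in UVB 2.5 h replicate 1, at 7.89 in replicate 2 and at 304 in replicate 3, against 2140, 3007 and 2866 CPM under visible light. LOC111879796 stood at 1340, 7161 and 5157 CPM in the same UVB libraries. For both genes, replicate 1 lay near the visible-light libraries and replicates 2 and 3 away from them. The 3 UVB libraries were all of the lower tag series and the 3 visible-light libraries all of the upper, so that UVB and the series cannot be told apart here.

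In Falstaff, UVB for 2.5 h was compared on 2 libraries each. Limma called 0 of the 100 genes and 0 of 22692 (background of 0%), edgeR 0 of the 100, and DESeq2 0 of the 100 and 21 genes in all. At an unadjusted p under 0.05 there were 9 of the 100, 7 higher and 2 lower, against 4.8% of all genes (2.78% higher and 2.02% lower). The next 100 genes by rank also had 9, 7 higher and 2 lower. The median log2 difference was -0.20 over the 100 and -0.02 over all. The libraries did not overlap for 22 genes that were higher (21.2% of all genes) and 37 that were lower (21.5%). Among the next 100 genes by rank these counts were 19 and 43. LOC111914553 had 2210 and 2494 CPM under UVB and 555 and 910 CPM under visible light, a log2 difference of 1.55 (SE 0.52, limma adjusted p = 0.972); in Luna bionda it was 1 of the 2 genes that lay lower under UVB, with 1006, 402 and 906 CPM against 1547, 1302 and 1785.

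The response to UVB for 2.5 h was then compared between the varieties by the interaction in the same fit. The Luna bionda UVB libraries were of the lower tag series and all other libraries of this comparison of the upper. A difference in response between the varieties thus cannot be told apart from the series. Limma called 0 of the 100 genes and 0 of 22692 (background of 0%), and edgeR called 0 of the 100. DESeq2 called 17 of the 100, where it called 7.18% of all genes in either direction. Its count for the next 100 genes is not given here, so the 17 calls are not read as a trait of the 100 genes. At an unadjusted p under 0.05 there were 26 of the 100 and 34 of the next 100 genes by rank, against 18.5% of all genes. Without Luna bionda UVB 2.5 h replicate 1, limma called 12 of the 100, 9 higher and 3 lower, and 2711 genes in all. Of the 100 genes, 52 were above 0 in Luna bionda alone, 22 in both varieties, 21 in Falstaff alone and 5 in neither. Over all genes tested these shares were 32.5, 15, 33.1 and 19.5%. The next 100 genes by rank were close to the members, with 68 above 0 in Luna bionda and 42 in Falstaff, against 74 and 43. For the genes that entered through the Luna bionda UVB libraries, the choice favoured a higher level there. LOC111879796 had the smallest adjusted p: its log2 difference with UVB was 2.09 in Luna bionda and -2.11 in Falstaff, where the visible-light libraries stood at 4121 and 715 CPM and the UVB libraries at 558 and 362 CPM (interaction 4.20, SE 1.14, limma adjusted p = 0.128).

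**Figure D5:**
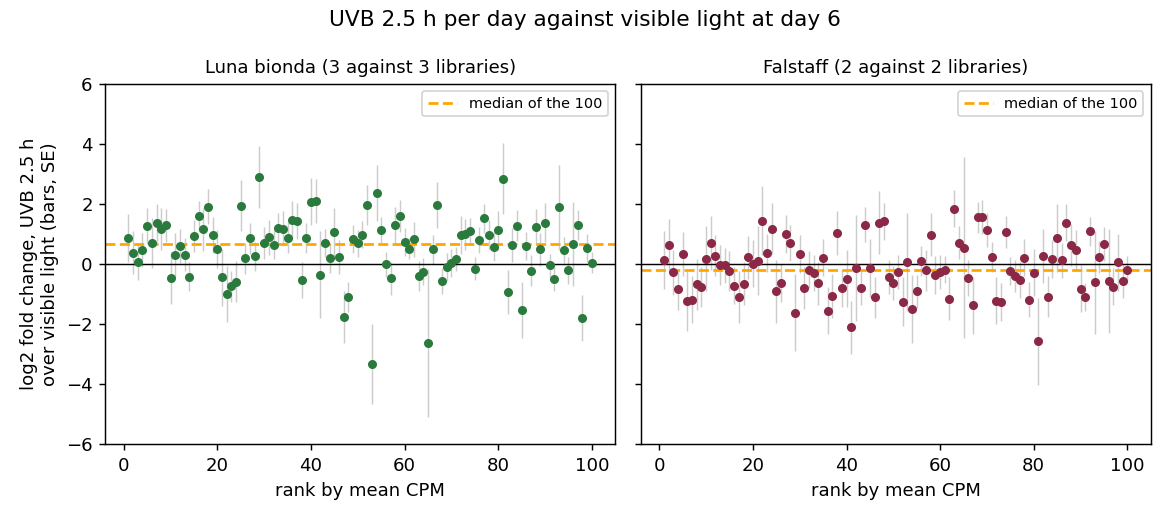
Log2 difference between UVB for 2.5 h and visible light at day 6 (vertical axis; grey bars, SE) for each of the 100 genes by rank (horizontal axis), in Luna bionda (left, 3 against 3 libraries) and Falstaff (right, 2 against 2); dashed lines are the medians of the 100, at 0.67 and -0.20. None of the points passes an adjusted p of 0.05 with limma.

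UVB for 7.5 h in Luna bionda, on 2 libraries against 3, gave 0 calls among the 100 genes and among all genes with limma (background of 0%), 0 of the 100 with edgeR and DESeq2, and 0 of the 100 at an unadjusted p under 0.05, against 3.94% of all genes. The median log2 difference was 0.37 over the 100, 0.36 over the next 100 genes by rank and 0.01 over all. The UVB libraries lay above all visible-light libraries for 9 genes (11% of all genes) and below them for 3 (10.2%). The median SE of a member in this comparison was 0.62 (log2).

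Day 6 under visible light against day 0 gave 0 calls among the 100 in both varieties with limma (background of 0% in both), edgeR and DESeq2. At an unadjusted p under 0.05 there were 0 of the 100 in Luna bionda (2.68% of all genes) and 2 in Falstaff (4.34%). The median log2 differences were -0.24 and -0.04. In Luna bionda the 3 libraries of the days did not overlap for 1 gene that was higher (4.07% of all genes) and 2 that were lower (4.2%), and in Falstaff for 9 that were higher (16.9%) and 14 that were lower (15.8%). UVA in Falstaff rested on a single library, assumed to vary like the others. It gave 0 calls with limma (background of 0%), 0 of the 100 with edgeR and DESeq2, and 0 of the 100 at an unadjusted p under 0.05, against 1.6% of all genes. Comparisons within a variety share their visible-light libraries.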

How the data were processed

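STAR was the aligner and featureCounts 1.6.3 the counter, per the submitters' processing notes; no STAR version, genome build, annotation, strand setting or rule for multi-matching reads was given in the sources. Deposited by the authors were 7 tables of normalized signal, 6 libraries each, and tables with a log2 fold change, a test score and a p-value per gene, which were not used. Each column of signal was made of whole multiples of a step; at a relative tolerance of 0.001, 100.0% of values came out as whole reads. These recovered reads of 24 libraries were joined, and CPM was computed from them.

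Tests used limma 3.58.1 (R 4.3.3) with a trend on intensity; its input was log2 of median-of-ratios normalized reads + 1, over the 18 libraries in 8 groups (10 residual degrees of freedom). Fold changes are on that scale and understate those of low genes. Genes with a mean of at least 10 were tested, and a call needs a p of 0.05 after Benjamini-Hochberg adjustment over all of them. Overlap between groups was counted on the normalized values. Alternatives were no filter, TMM scaling, pseudocounts of 5 and 0.5, edgeR 4.0.16 and DESeq2 1.42.0 on the recovered reads, all 24 libraries, a tag-series term, a replicate block, no condition term and the omission of each library. The fit within the upper tag series and the omission of Luna bionda UVB 2.5 h replicates 2 and 3 together were added after seeing the data. The scripts were tested on simulated data.

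The members and lists were chosen with earlier results of these data known. Named genes are the first 10, the 3 on each side of rank 100 and the 3 of smallest and of largest residual SD. Also named are those called between the varieties over the 3 conditions both had. Further ones are those that entered through Luna bionda under UVB for 2.5 h. Chosen after their values were seen were the neighbouring genes, the non-coding RNAs and the examples under UVB. Planned groupings by protein family, product name and promoter motif were not made, since no sequence or product name was at hand. RefSeq's table of assembly Lsat_Salinas_v11 gave biotypes and gene order only. Floors and shares cover counting error only.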

Additional observations from a re-analysis of the deposited data

Results flagged for a closer look

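In the 6 shallow libraries, which the comparisons leave out, 23 locus identifiers were among the 100 highest of all 6 libraries and of none of the 18; the best rank that any of them reached in the 18 was 727. They held 17.5 to 65.5% of the reads in the 6 libraries and 0.00426 to 0.0636% in the 18. By RefSeq biotype, 10 are small nuclear RNAs, 5 ribosomal RNAs, 4 long non-coding RNAs, 2 small nucleolar RNAs and 2 protein-coding. The labels give both kinds of library as polyA RNA.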

How the results depend on the processing

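The share of reads was 16.3% for the first 50 genes and 30.5% for the first 200, by construction, and 22.6 to 23.2% when each library was left out. The excess of Luna bionda in the share of each library's own first 100 genes was 0.837 to 2.25 points when each library was left out and reversed to -7.69 over all 24 libraries, where 5 of the 6 shallow libraries are of Falstaff. Variety calls among the 100 were 16 with DESeq2 (2711 genes in all, against 1898 with limma) and 4 with a tag-series term (1111 in all). They were 2 to 11 when each library was left out (1308 to 2484 in all), and 5 to 10 in the other alternatives. Totals over all genes are not given here for those other alternatives, so that their counts are not set against a background. UVB for 2.5 h in Luna bionda gave 16 calls with DESeq2 (1945 in all) and 0 to 17 when each library was left out, and the interaction gave 17 (1593 in all) and 0 to 12; the other 5 condition contrasts gave 0 throughout. Uncalled log2 differences between varieties reversed for LOC111908249 over all 24 libraries (0.50), LOC111877950 with a tag-series term (0.21) and LOC111913912 in the upper tag series (-0.17). The cause was not tested.

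With a replicate block, 5 of the 100 genes were called between varieties and 0 in the condition contrasts. The share called over all genes with that block is not given here, so the 5 calls are not set against a background. Same-numbered libraries deviated together (correlation over 0.1) in 7 of 42 pairs, from -0.50 to 0.26. In groups of 2 libraries the deviations mirror each other, so the 42 values are not independent. Whether same-numbered libraries share more than a number was not settled.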

Other observations

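LOC111889413, a long non-coding RNA of rank 42, differed between libraries of the same group: in Luna bionda it stood at 195, 4588 and 207 CPM at day 0 and at 268 and 6768 CPM under UVB for 7.5 h.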
